A study of Saccharomyces cerevisiae with 4 samples.

Results

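The FLAG immunoprecipitate of Acs2-FLAG yeast gave 912 peaks, and 234 of them (25.7%, exact Clopper-Pearson interval 22.9 to 28.6) lay at the 5′ side of protein-coding genes. These 5′ peaks had their summit before the midpoint of a protein-coding gene in reading direction, or outside any gene within 500 bp upstream of a start. They shared no base with a peak of the untagged strain or with a tRNA, snoRNA, rRNA or other non-coding RNA gene of the RefSeq R64 annotation. Antisense RNAs were ignored, the shorter gene was taken where 2 held the summit, and upstream summits went to the nearest start. Of the 234, 174 were gene-body peaks and 60 were promoter peaks (25.6%, 20.2 to 31.7), assigned to 231 genes.

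The yeast were either untagged or carried Acs2-FLAG, a FLAG-tagged Acs2; the labels name no strain background or other alleles. Cultures in YPD (rich medium, 2% glucose) at 28 °C were taken at an optical density of 0.7 to 1.0. Both strains were crosslinked with 1% formaldehyde. Input chromatin (no antibody) and an immunoprecipitate with the FLAG M2 antibody were sequenced from each, 1 library per group. With single libraries, values carry no replicate spread and the strains were not tested against each other. Peaks of 1 library are not replicates, so medians are descriptions.

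Acs2 is one of the acetyl-CoA synthetases of budding yeast and makes acetyl-CoA from acetate, coenzyme A and ATP. It is the form used during growth on glucose, and it is found in the cytosol and the nucleus. Nuclear acetyl-CoA is the acetyl donor for histone acetylation. Nucleosomes that carry histone acetylation are known to be most abundant over promoters and the 5′ parts of transcribed genes. Chromatin immunoprecipitation recovers DNA crosslinked to a tagged protein, directly or through other molecules.

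The lowest background at a summit was 291.1 fragments per base in the Acs2-FLAG library and 198.4 in the untagged library, whose list held 34 peaks, 24 of them nuclear. Before the exclusions, 254 Acs2-FLAG peaks had a summit in a promoter or before a gene midpoint. Of these, 6 shared a base with an untagged peak, and a further 14 met a non-coding RNA gene. Outside the ribosomal DNA, the peaks left out as shared with the untagged list were at PDC1, PMA1, MDH2, ILV5 and PDR5. Their folds ran from 2.15 to 2.93. Peaks outside the ribosomal DNA that the untagged list shared had Acs2-FLAG folds of 2.07 or more, and only 12 of the 234 5′ peaks reached that value. That value is not a detection limit of the untagged list. At any Acs2-FLAG fold, whether the untagged library had uncalled enrichment cannot be told from the lists. ACS2 itself (chromosome XII, 445524 to 447575) had no peak in either list within 500 bp. The lists therefore give no check of the tag itself.

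Fold enrichment, the authors' ratio of fragments at the summit to local background, was low at most 5′ peaks. Its median was 1.37, with quartiles of 1.27 and 1.52 and a range of 1.16 to 2.99. A fold of at least 2 was found at 16 of the 234 (6.84%), while 38.7% of all Acs2-FLAG peaks reached it, most of them outside the 5′ peaks. The tRNA gene peaks of the same library had a median fold of 3.18. Peaks with their summit beyond the gene midpoint, called 3′ peaks, numbered 274 by the same exclusions and had a median of 1.36 and quartiles of 1.28 and 1.58. The 5′ peaks and the 3′ peaks thus had overlapping quartiles. At the summits of the 5′ peaks there were 350 to 1050 fragments, with a median of 439, over a background of 291.1 to 616.3.

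**Figure D1:**
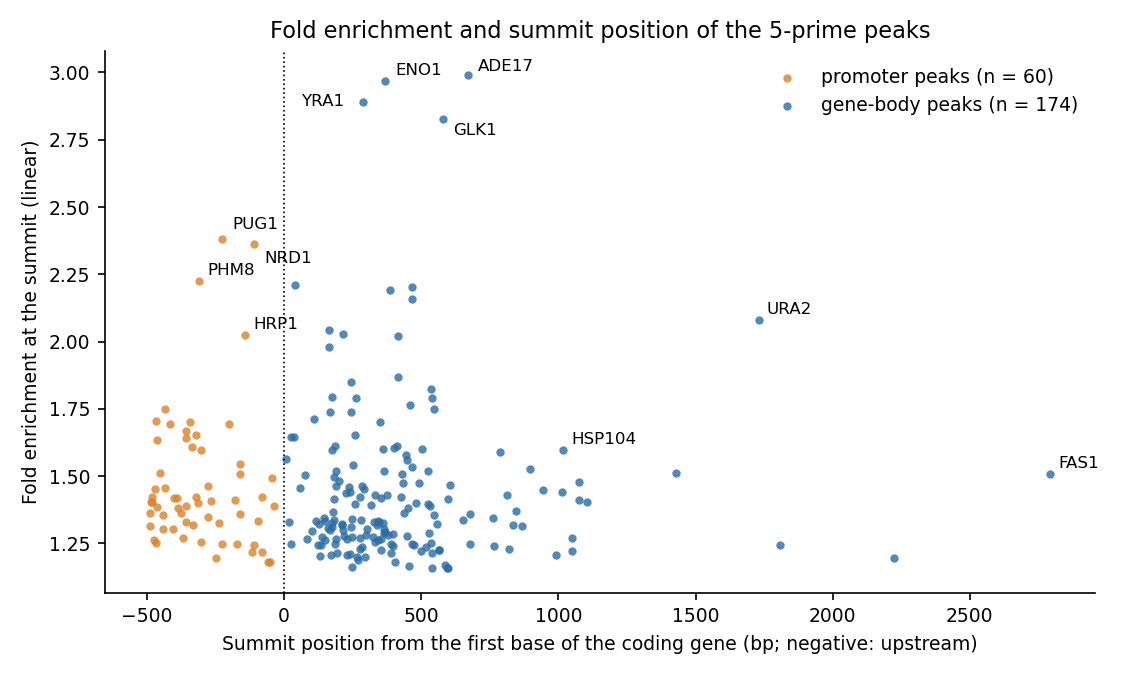
Fold enrichment at the summit (linear axis) against the summit's distance from the first base of the assigned gene, in bp and negative upstream. Each point is 1 peak of 1 library, orange for the 60 promoter peaks and blue for the 174 gene-body peaks; ADE17, ENO1, YRA1 and GLK1 stand above the rest with folds of 2.83 to 2.99.

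The strongest 5′ peak lay over ADE17 (peak at chromosome XIII, 507050 to 509437), which encodes the enzyme for the last steps of IMP synthesis. Its summit had 877 fragments over a background of 292.7, a fold of 2.99 (exact Poisson interval 2.79 to 3.19). Such intervals hold counting error alone. ENO1 (chromosome VII, 1000742 to 1002621), for the glycolytic enzyme enolase, had 930 fragments over 312.7 and a fold of 2.97 (2.78 to 3.17). YRA1 (chromosome IV, 1236376 to 1238438), for an mRNA export factor, had 863 over 298.0 and a fold of 2.89 (2.70 to 3.09). GLK1 (chromosome III, 50585 to 52743), for glucokinase, had 988 over 348.6 and a fold of 2.83 (2.66 to 3.01). The intervals of these 4 peaks overlapped each other and lay above that of every other 5′ peak.

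The next group held narrow upstream peaks as well as broad gene-body peaks. The strongest promoter peak lay 226 bp upstream of PUG1, a gene for a plasma membrane porphyrin transporter (chromosome V, 559027 to 559409). It had 715 fragments over 299.8 and a fold of 2.38 (2.21 to 2.56). NRD1, for an RNA-binding factor of transcription termination, had its summit 111 bp upstream (chromosome XIV, 173885 to 174782) and a fold of 2.36 (2.19 to 2.55). The summit at PHM8, for a phosphatase, lay 309 bp upstream (chromosome V, 225404 to 225724) with a fold of 2.23 (2.06 to 2.40). HRP1, for an RNA-binding subunit of the mRNA cleavage machinery, had its summit 144 bp upstream (chromosome XV, 87338 to 88291) and a fold of 2.02 (1.87 to 2.19). NRD1 and HRP1 peaks ran on over the start into the coding region, whereas the PUG1 and PHM8 peaks met no coding gene.

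Gene-body peaks with folds close to 2 completed the 20. The peak with its summit in YCR024C-B met 3 protein-coding genes and had a fold of 2.21 (2.05 to 2.38). SSA2, for a cytosolic Hsp70 chaperone, had 1050 fragments, the most of any 5′ peak, over 476.2, and a fold of 2.20 (2.07 to 2.34). BMH1, for a 14-3-3 protein, had 2.19, and MRH1, for a plasma membrane protein, 2.16. URA2, for the first enzyme of pyrimidine synthesis, had 2.08 (1.93 to 2.24) in a peak of 7527 bp, the widest of all the 5′ peaks. Folds at MBF1, for a transcriptional coactivator, RPS14B, for a ribosomal protein, and HAC1, for the transcription factor of the unfolded protein response, were 2.04, 2.03 and 2.02. HHT1, for histone H3, had 1.98, RPS9A 1.87, the copper transporter gene CTR1 1.85 and UTH1, for a cell wall protein, 1.82. Counting intervals of neighbours in this order overlapped, so their ranks are not resolved at this depth.

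**Figure D2:**
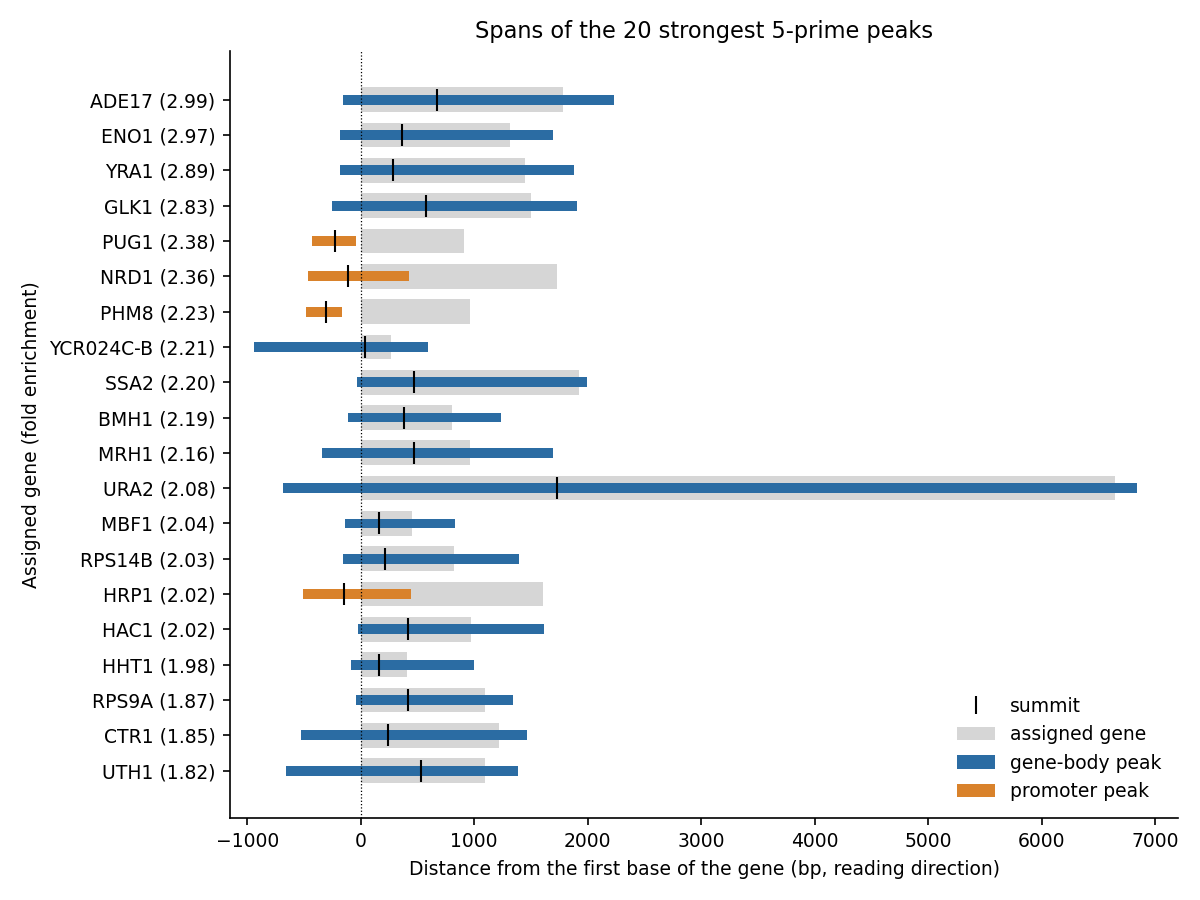
Extent of the 20 strongest 5′ peaks along their assigned genes, in bp from the first base of the gene in reading direction. Grey bars are the genes, blue and orange bars the gene-body and promoter peaks, black ticks the summits, and the number beside each name is the fold; the 16 blue bars cover the whole gene and the 4 orange ones do not.

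In gene bodies, summits lay some way into the gene and not at the start codon. The median summit was 355 bp from the first base (quartiles 213.25 and 530.5), and 125 of 174 (71.8%, exact interval 64.5 to 78.4) were under 500 bp in. Both values are partly set by the choice of summits before the midpoint. The 68 gene-body peaks in genes under 1000 bp could only have summits under 500 bp in. Only 9 of 174 lay under 100 bp in, the nearest at SLA1, 6 bp from the first base, and FET4, 17 bp. The farthest were in long genes, FAS1 at 2793 bp and URA2 at 1730 bp among them. With the gene length divided into 10 equal parts, the counts from the start to the middle were 12, 28, 43, 44 and 47. The parts beyond the midpoint held 53, 47, 64, 57 and 53, so the part before it had 174 of 448 gene-body summits (38.8%, 34.3 to 43.5). The median fold in the first 5 of these parts stayed between 1.33 and 1.39, with no order along the gene.

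**Figure D3:**
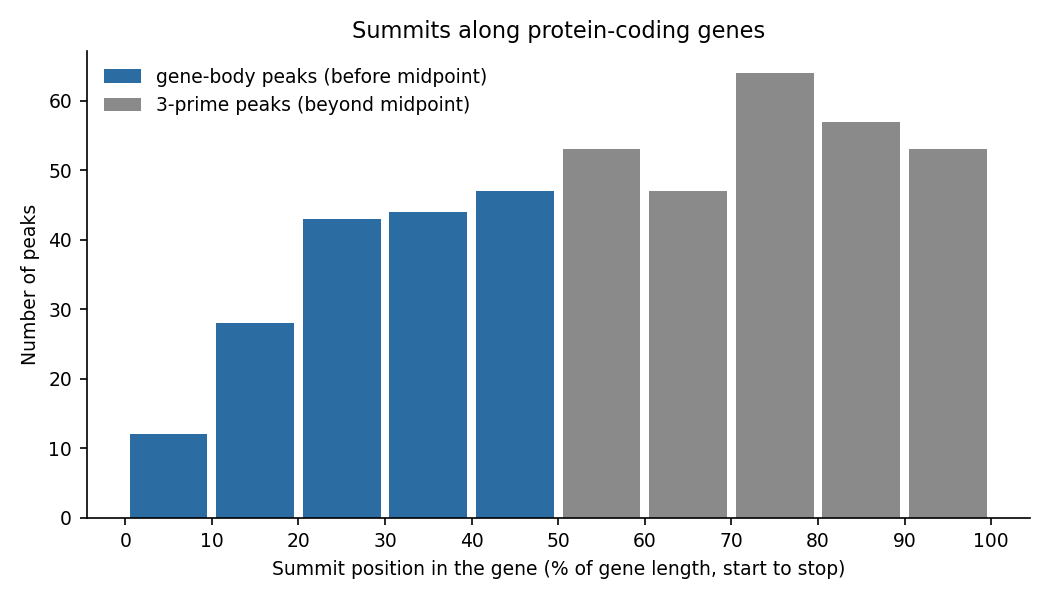
Number of peaks by summit position in 10 equal parts of gene length, from start to stop. Blue bars are the gene-body peaks before the midpoint and grey bars the 3′ peaks; the bar of 12 peaks next to the start is the lowest and the bar of 64 at 70% to 80% the highest.

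Genes with a gene-body peak had a median length of 1218 bp, introns included, close to the 1200 bp of all nuclear protein-coding genes. Genes with a 3′ peak were shorter, with a median of 970.5 bp. In genes of 2000 to 3000 bp there were 24 gene-body and 14 3′ peaks, and in genes under 1000 bp 68 and 142. Short genes thus held most 3′ summits but fewer gene-body summits, and the split by gene length was not tested.

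How much of the gene a peak covered went with its fold. Among the gene-body peaks, the 26 strongest all spanned their gene from start to stop. Of the 49 with a fold of at least 1.5, 37 spanned the whole gene (75.5%, exact interval 61.1 to 86.7). The count was 3 of 63 between 1.3 and 1.5, and 2 of 62 below 1.3. 3′ peaks did likewise, with 62 of 83, 9 of 105 and 1 of 86 in the same classes. Width and fold come from the same signal track, so coverage and fold are not separate measurements. In all, 70 of the 174 covered the start and 73 the stop, 42 covered both, and 73 lay wholly inside the gene.

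Promoter peaks were narrower than gene-body peaks. Their median width was 432.5 bp (quartiles 319.5 and 634.75), against 806 bp (507.5 and 1633.25) for gene-body peaks. Fewer than 500 bp were spanned by 38 of 60 promoter peaks (63.3%, exact interval 49.9 to 75.4) and by 41 of 174 gene-body peaks (23.6%, 17.5 to 30.6). The folds overlapped, with medians of 1.40 and 1.34 and upper quartiles of 1.56 and 1.52. 3′ peaks had a median width of 663.5 bp, between the others. The widest gene-body peaks after URA2 were at FAS1 (6602 bp), CSS1 (4963 bp) and ADE6 (4097 bp), each covering at least 89.8% of its gene.

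**Figure D4:**
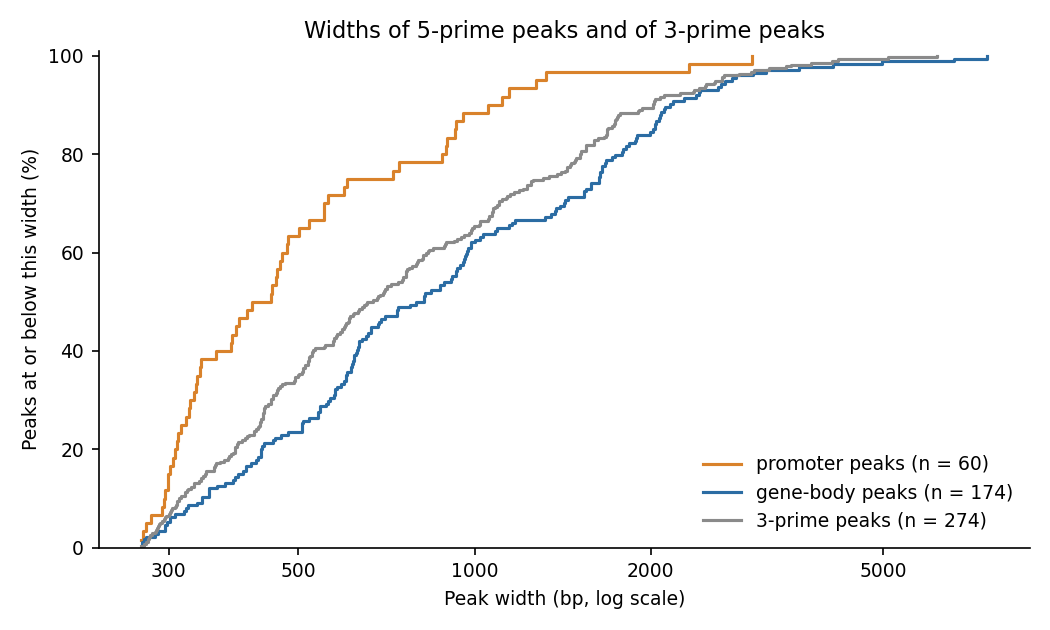
Cumulative share of peaks by width in bp (log axis), orange for promoter peaks, blue for gene-body peaks and grey for 3′ peaks. The orange curve lies to the left, with a median of 432.5 bp against 806 bp for the blue and 663.5 bp for the grey curve.

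Promoter summits were 37 to 490 bp upstream of the start, with a median of 326 bp, and 36 of 60 were more than 300 bp away. For 9 of the 60, the summit was within 500 bp upstream of 2 starts, whether on the same side or on opposite sides. PHM8 was among these 9. The called interval reached the start of the assigned gene in 20 of 60 (33.3%, exact interval 21.7 to 46.7). Where it did not, its edge stopped a median of 214.5 bp short. The intervals of 21 promoter peaks met no coding gene at all, 16 met only the assigned gene, 4 met this and another gene, and 19 met only another gene.

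Several promoter summits were close to the end of a neighbouring gene. For 16 of the 60 promoter peaks (26.7%, 16.1 to 39.7), a stop of another gene lay within 300 bp and nearer than the assigned start. Stops farther than 300 bp from the summit were not looked at, so more of the 60 may lie nearer to a stop. The peak assigned to NUP120, a nucleoporin gene, had a fold of 1.75 (1.60 to 1.90) and its summit 436 bp upstream of NUP120 but 7 bp past the stop of TMA19. At YLR278C, with a fold of 1.70 (1.57 to 1.85), the distances were 468 bp to the start and 1 bp to the stop of RSO55. RPB8, for a subunit shared by the nuclear RNA polymerases, had 1.70 (1.56 to 1.86), 342 bp from its start and 7 bp from the stop of ISU2. For such peaks the assigned gene follows from the distance rule, and the data do not say which gene the signal belongs to.

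The 21 promoter peaks that met no coding gene had a median width of 331 bp and a median fold of 1.41. Besides PUG1 and PHM8 they include 9 of the 12 promoter peaks of ribosomal protein genes. Those that met only the assigned gene had a median fold of 1.44 and a median width of 472 bp, and their summits lay closer, at a median of 130 bp. Among these, IMD2 and IMD3, both for IMP dehydrogenase of guanine nucleotide synthesis, had folds of 1.51 (1.37 to 1.65) and 1.49 (1.36 to 1.64), with summits 161 and 45 bp upstream. The peak at GLY1, for threonine aldolase, had its summit 415 bp upstream but ran over the whole gene, with a width of 2328 bp and a fold of 1.69 (1.56 to 1.83).

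Over all 6002 nuclear protein-coding genes, 3.85% had a 5′ peak assigned, 4.53% a 3′ peak, 2.88% a gene-body peak and 1% a promoter peak. The 24 gene lists held 1087 genes, 141 of them with a 5′ peak (12.97%), and 90 of the 4915 other genes had one (1.83%). A 3′ peak lay at 158 of the 1087 (14.5%) and at 114 of the 4915 (2.32%). Both kinds of peak thus had higher shares in the lists, and which kind was more frequent differed between lists. The lists were drawn up with earlier results of these data known, they hold many highly expressed genes, and no test of the lists was run. The shares of 5′ peaks below stand beside the 3.85% of all genes, and those of 3′ peaks beside 4.53%.

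Nucleotide synthesis had the highest share, 10 of 31 genes (32.3%), with a median fold of 1.55 against 1.37 for all 5′ peaks. With the middle of the peak in place of the summit it had 6 of 31 and was no longer first, behind the transporters with 12 of 54. Beside ADE17 and URA2, URA1, for dihydroorotate dehydrogenase, had a fold of 1.79 (1.64 to 1.95). ADE57 (YGL234W), for a bifunctional enzyme of purine synthesis, had 1.75 (1.61 to 1.90). ADE12, for adenylosuccinate synthase, had 1.60, and ADE6 and ADE8, for further purine enzymes, 1.51 and 1.44. IMD2 and IMD3 were the only promoter peaks of the list, and ADK1, for adenylate kinase, had the lowest fold, 1.33. 3′ peaks lay at 6 of the 31, none of them in the same genes.

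Genes of carbon metabolism were spread over 4 lists. Of 25 glycolysis and fermentation genes, 3 had a 5′ peak (12%), ENO1, GLK1 and PFK2, the last for a phosphofructokinase subunit with a fold of 1.59 (1.45 to 1.74). All 3 peaks covered the whole gene, and 8 other genes of this list had a 3′ peak. The tricarboxylic acid cycle and acetyl-CoA supply list had 4 of 29 (13.8%). ALD6, for the cytosolic aldehyde dehydrogenase that makes the acetate Acs2 uses, had 1.70 (1.56 to 1.85). CIT1 and CIT2, for citrate synthases, which consume acetyl-CoA, had 1.42 and 1.39, and PYC2, for pyruvate carboxylase, 1.31. Only 1 gene of this list had a 3′ peak. The pentose phosphate, trehalose and glycogen list had 4 of 27 (14.8%). It was led by GND1 with 1.47, TKL1 with 1.38 and ZWF1 with 1.27, which encode pentose phosphate enzymes. A 3′ peak lay at 9 of these 27 genes (33.3%). Of 19 genes of hexose transport and glucose sensing, HXT3, a glucose transporter gene, was the only one, with 1.34.

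Lipid and sterol synthesis, which uses acetyl-CoA, had 9 of 39 genes (23.1%), all as gene-body peaks and mostly weak, with a median fold of 1.28. FAS1, for fatty acid synthase, had 1.51 (1.38 to 1.65), ERG6, for a sterol methyltransferase, 1.40, and ACC1, for acetyl-CoA carboxylase, 1.32. Beside ERG6 there were 5 more genes of the ergosterol pathway, ERG11, ERG3, ERG28, ERG10 and ERG1, with folds of 1.22 to 1.30. A 3′ peak lay at 6 of the 39 (15.4%). Serine, one-carbon and methionine genes had 5 of 33 (15.2%), led by GLY1, MTD1 with 1.65 and MET6, for methionine synthase, with 1.35. A 3′ peak lay at 8 of the 33 (24.2%). Amino acid synthesis, a larger list, had 2 of 57 (3.51%), HIS1 and HIS4 of histidine synthesis with 1.48 and 1.43, a share near that of all genes.

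Cytosolic ribosomal protein genes were the most numerous, with 31 of 137 (22.6%), 15 of the large and 16 of the small subunit. 3′ peaks lay at 45 of them (32.8%), and 3 genes had both. Their 5′ peaks were weak, with a median fold of 1.40, and RPS14B and RPS9A alone exceeded 1.7. Promoter peaks lay at 12 of the 137 (8.76%, exact interval 4.61 to 14.8), against 1% of all genes. These 12 were narrow, 10 of them under 500 bp, and 11 had their summit at least 250 bp upstream. RPL2B had the highest fold, 1.67 (1.53 to 1.81), 357 bp upstream, followed by RPL1B with 1.65 at 320 bp. The RPL2B summit was nearer to the stop of FAF1, at 278 bp, and the RPS20 promoter summit to the stop of YHL015W-A, at 226 bp, so both are among the 16 promoter peaks nearer to another gene's stop. The others ran from 1.31 at RPS20 to 1.46 at RPS24A. At RPL1B, RPS4A, RPL27A and RPL42B, the summit lay within 500 bp upstream of 2 starts and was assigned to the nearer. The 20 ribosomal protein genes with a gene-body peak had a median width of 630.5 bp, and 5 of these peaks covered the start. Most ribosomal protein genes have a second, near-identical copy, so that a value at 1 copy is uncertain.

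Both copies had a 5′ peak in 4 of 57 ribosomal protein gene pairs, and 1 copy in 18. At RPS18A and RPS18B the folds were 1.42 (1.29 to 1.56) and 1.18 (1.06 to 1.31), with summits 321 bp upstream in the first and 404 bp inside the second. RPS4A and RPS4B likewise had a promoter peak of 1.42 and a gene-body peak of 1.24. At RPL22A and RPL22B, and at RPS27A and RPS27B, both summits lay inside the gene. The summits of EFT1 and EFT2, which both encode elongation factor 2, were 1075 and 1106 bp in, with folds of 1.41 (1.29 to 1.54) and 1.41 (1.28 to 1.54). BDF1 and BDF2, for bromodomain proteins that bind acetylated histones, had folds of 1.55 and 1.54, with summits 161 bp upstream and 252 bp inside the gene. HSC82 and HSP82, for Hsp90, differed more, with 1.58 (1.45 to 1.72) and 1.16 (1.05 to 1.28). The HSC82 peak covered its whole gene, whereas HSP82 also had a 3′ peak, with a fold of 1.35. Pairs other than ribosomal protein genes were picked after their values were seen. Whether reads could be told apart between the copies of these pairs was not tested, so the values of a pair may not be separate measurements.

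Translation factor and tRNA synthetase genes had 7 of 60 (11.7%). YEF3, for elongation factor 3, led with 1.48 (1.35 to 1.61), and EFT1 and EFT2 followed. The TEF1 peak lay 386 bp upstream with a fold of 1.38 (1.25 to 1.52). Its summit was 476 bp from an untagged peak inside TEF1, the shortest such distance among the 5′ peaks. This summit was also 194 bp past the stop of MRL1, the only gene the peak met. Chaperone and heat shock genes had 7 of 36 (19.4%), with a median fold of 1.58, and 5 of the 7 peaks covered the whole gene. After SSA2 came SSC1, for the mitochondrial Hsp70, with 1.79 (1.65 to 1.94) and HSP104, for a disaggregase, with 1.60. A 3′ peak lay at 8 of the 36 (22.2%). Proteasome and ubiquitin genes had 5 of 42 (11.9%), with UBI4, for polyubiquitin, at 1.60 and PUP1 and RSP5 at 1.32 and 1.27.

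Of 11 histone genes, 3 had a 5′ peak (27.3%), all covering the whole gene. HHT1 had 1.98 (1.84 to 2.13), HTB1, for H2B, 1.71 (1.57 to 1.86) and HTZ1, for the variant H2A.Z, 1.27 (1.14 to 1.40). Of the 11 histone genes, 4 had a 3′ peak (36.4%). Genes of histone acetylation, methylation and chromatin had 3 of 60 (5%), close to the share of all genes. These were BDF1, BDF2 and EPL1, for a subunit of the NuA4 histone acetyltransferase, with 1.30. RNA polymerase and general transcription genes had 2 of 49 (4.08%), RPB8 and RPB11, the second with 1.33. Transcription regulator genes had 8 of 63 (12.7%), with HAC1 followed by HAP1, a haem-responsive activator gene, at 1.52 (1.40 to 1.66) and TYE7, for a regulator of glycolytic genes, at 1.50. RPN4, for the activator of proteasome genes, was the promoter peak among them, with 1.36. Of these 63 genes, 4 had a 3′ peak (6.35%).

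Plasma membrane and vacuole transport genes had 12 of 54 (22.2%), all gene-body peaks. After CTR1 the highest folds were 1.61 at MUP1, for a methionine permease, and 1.60 at BAP2, for a branched-chain amino acid permease. Metal uptake genes were among the others, FET3 with 1.45, FET4 with 1.33, ZRT2 with 1.17 and FTR1 with 1.16. Of the 54 genes, 11 had a 3′ peak (20.4%). FTR1, RPS0B and HSP82 had the smallest folds of all the 5′ peaks, each 1.16 like TIF6, with intervals that overlapped. Cell wall genes had 8 of 52 (15.4%), with UTH1, UTR2 at 1.56 and CCW14 at 1.45 the strongest. Of these, the promoter peaks were at PIR3, SIM1 and SRL1, with folds of 1.24 to 1.36. A 3′ peak lay at 13 of the 52 cell wall genes (25%).

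Smaller counts came from the other lists. Secretory pathway genes had 6 of 51 (11.8%), with YPT6 at 1.45, ERV25 at 1.27 and PMT1 at 1.27. The YPT6 summit was 470 bp from its start and 107 bp past the stop of TMA7. Cell cycle and polarity genes had 4 of 46 (8.70%), with RHO1 at 1.44, WHI5 at 1.37 and CLB1 at 1.24. Mitochondrial respiration genes had 3 of 41 (7.32%), QCR9, MIR1 and QCR7, all at or below 1.26. Redox genes had 2 of 29 (6.90%), PDI1 with 1.53 and TRR1 with 1.26. Ribosome biogenesis genes had 2 of 57 (3.51%), RPF1 with 1.40 and TIF6 with 1.16, and signalling genes had BMH1 alone of 40 (2.5%). The RPF1 summit was 314 bp from its start and 26 bp past the stop of RTC3, the only gene this peak met.

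**Figure D5:**
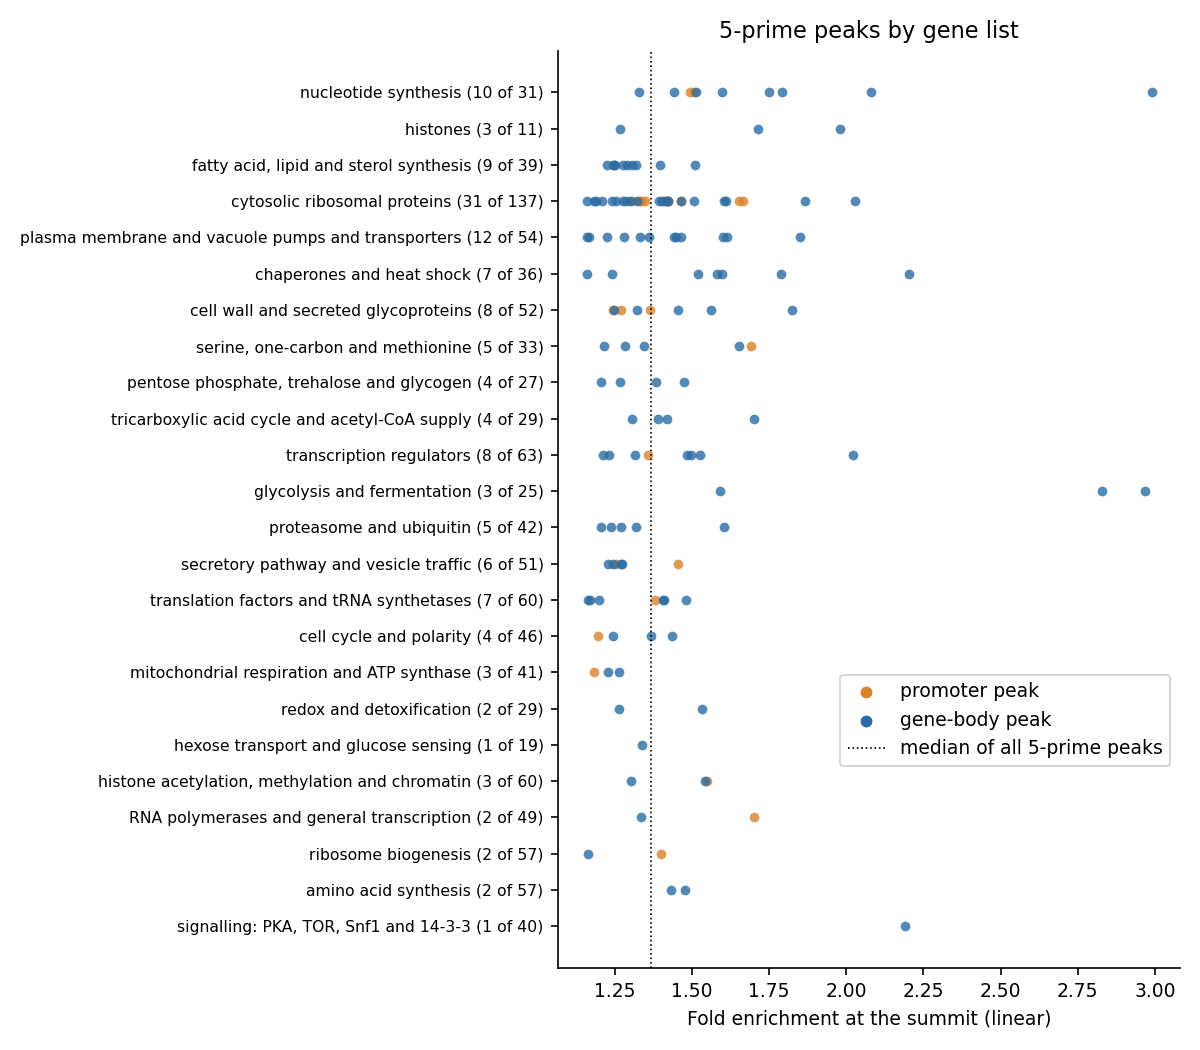
Fold enrichment at the summit (linear axis) of each 5′ peak whose gene is in a list, 1 row per list, ordered by the share of its genes with such a peak, which is given in parentheses as a count. Orange points are promoter peaks, blue points gene-body peaks and the dotted line is the median of all 234, 1.37; nucleotide synthesis stands first with 10 of 31 genes.

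Several genes carried more than 1 peak. Both summits of ACC1 lay before its midpoint, 835 and 1807 bp in, with folds of 1.32 (1.20 to 1.45) and 1.24 (1.12 to 1.37). PDR15, for a drug pump, had a promoter peak of 1.45 at 433 bp upstream and a gene-body peak of 1.36 at 439 bp inside. At RPS20 the promoter peak had 1.31 and the gene-body peak 1.42. A 3′ peak accompanied the 5′ peak in 18 genes, among them RPL2B, RPS4A, FKS1, GNP1 and HSP82. At RPL2B the promoter fold was 1.67 and the 3′ fold 1.43, while at HSP82 the order was the reverse, with 1.16 and 1.35.

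The few peaks nearest to the limits of the choice differed in fold. Just inside the gene midpoint were MUP3 with a fold of 1.43, SIS1 with 1.52 and RPS20 with 1.42, at 49.6% of the gene length each. Just outside it were LSP1 with 1.85, ADE4 with 1.66 and SPO24 with 2.65, at 50.2%, 50.7% and 50.7%, so these 3 were higher than the 3 inside. The wider bins beside the midpoint did not share this order. The median fold was 1.39 for the 47 peaks at 40% to 50% of the gene length and 1.35 for the 53 at 50% to 60%. At the 500 bp limit, the summits at PIR3, YOR302W and GPC1 were 490, 489 and 487 bp upstream, with folds of 1.36, 1.32 and 1.40. Those left out nearest to the limit, upstream of GIC2, SUR2 and ECM3 at 514, 518 and 578 bp, had 1.18, 1.28 and 1.27, lower than the 3 inside.

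The choice of the 5′ peaks left out any that met an RNA gene or an untagged peak, so the distances to both are partly set by it and are given as a description. An RNA gene lay within 1000 bp of the summit for 5 of 234, all gene-body peaks, at MRH1, PIL1, RPL7B, YPR137C-A and PRE1. The median distance to the nearest RNA gene was 12799.5 bp. An untagged peak lay within 5000 bp for 2, TEF1 and RPS27A. By the same placing, 5 of the 24 untagged nuclear peaks had a summit in a promoter or before a gene midpoint (20.8%, exact interval 7.13 to 42.2). These were at API2, ARO9, RRT15, ILV5 and TEF1, with untagged folds of 1.38, 1.80, 4.57, 1.30 and 1.40.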

How the data were processed

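The analysis started from the 2 deposited peak lists in narrowPeak format. Per the submitters' processing notes, Trimmomatic, BWA, Picard and MACS2 were used with the genome build R64; their settings are not stated there, nor is sequencing depth. The authors called peaks per library, pairing input and immunoprecipitate of the same strain, per the file headers. The authors' fold is a ratio of fragments at the summit to local background. The authors' −log10 p and −log10 q belong to the summit; the deposited score repeats the −log10 q and was not used.

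Summits were placed against the 6002 nuclear protein-coding genes with a strand letter in a RefSeq table of assembly R64. The fragment count and background were solved from the fold and the −log10 p with the relations MACS2 uses; for 233 of the 234 peaks this gave a whole number (tolerance 0.05), and placing and solving were checked on simulated data. Shares have exact Clopper-Pearson intervals and folds have exact Poisson intervals at 95% confidence, for counting error only. All 960 symbols in 24 gene lists, plus the ribosomal protein genes chosen by their names, were matched. The peaks and lists were chosen with earlier results of these data known. Named genes are those at the 20 strongest peaks, up to 3 of each list, the 4 strongest promoter peaks, the 4 strongest gene-body peaks, the 3 weakest, those nearest the gene midpoint, and others whose place is singled out, chosen after their values were seen. Motif counts were planned and not run. Versions were scipy 1.17.1, pandas 2.3.3, numpy 2.4.6, matplotlib 3.10.9 and Python 3.11.15.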

Additional observations from a re-analysis of the deposited data

How the results depend on the processing

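Each of 7 summary values was recomputed under 8 alternatives. Of the 56 values, 47 stayed within 1.5 times the reported count or within an interval of the reported share or median. The intervals of the medians are not printed here, and the quartiles were not the criterion. With a −log10 q of at least 5, the median fold was 1.45, the median width 913.5 bp, and 47.0% of the peaks covered the start. With promoters of 250 bp, 10.8% of the peaks were promoter peaks. With the limit at 33.3% of the gene length in place of its midpoint, there were 155 peaks, 38.7% of them in promoters, with a median summit 275 bp into the gene, and 89 genes of the lists had a peak. With the middle of the peak in place of the summit, 51.4% covered the start. The counts of single lists moved by more than 1.5 times in 33 of 192 cases, mostly in lists with few 5′ peaks. Among these, ribosomal protein genes went from 31 to 18 at the 33.3% limit, and nucleotide synthesis genes from 10 to 6 at that limit or with the middle of the peak. The motif alternatives could not be run without sequence. No paired analysis was possible because each group has 1 library. Depth limits weak peaks: at the lowest fold, 1.16 at FTR1 from 379 fragments, the counting interval ran from 1.04 to 1.28.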

Other observations

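The 5′ peaks were spread over all 16 nuclear chromosomes. Genes with such a peak made up 6.25% of the protein-coding genes of chromosome V and 6.15% of those of chromosome XII. The lowest shares were 1.06% on chromosome I, from 1 gene of 94, and 1.92% on chromosome II, from 8 of 416. Of the 234 peaks, 126 were assigned to a gene on the W strand (53.8%, exact interval 47.2 to 60.4).

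For 3 peaks the summit lay in overlapping genes, YLR410W-A, YPR137C-A and YGR027W-A, chosen after their values were seen. Their folds were 1.64, 1.46 and 1.40. The background at the YPR137C-A summit, 616 fragments per base, was the highest of all the 5′ peaks. Whether these genes, or YLR256W-A and YJR029W, have near-identical copies elsewhere in the genome was not tested. If they do, the fold and background there do not belong to a single locus.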
